A study of Mus musculus with 6 samples.

Results

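Transcription regulators known for setting muscle fibre type were measured in bulk RNA-Seq of gastrocnemius/plantaris (GP) muscle of the mouse. They were Six4, Eya1, Sox6, Tbx15, Prox1, Maf, Mafa and Vgll2, chosen by symbol, and all 8 were found among the 24421 genes of the deposited count tables. Libraries came from 3 mice labelled Ctrl and 3 labelled cKO. Both groups carry the floxed Net39 allele on both chromosomes (Net39 fl/fl), with a strain background labelled B6C3F1 although founders were bred to C57BL/6N mice by the methods, and both were studied at 5 months of age, 3 months after tamoxifen. Ctrl mice lack Cre, whereas cKO mice carry HSA-CreERT2, a tamoxifen-dependent Cre recombinase under the human skeletal actin promoter that is active in skeletal myofibres and spares satellite cells and heart. All were males. GP is a mixed muscle in which fast fibres predominate, and every library is whole muscle, so fewer cells of a type and less RNA per cell cannot be told apart.

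The targeted gene went against the labels. Net39, listed as Ppapdc3, was counted 310, 321 and 217 times in Ctrl 1, 2 and 3 but 5365, 4340 and 6080 times in cKO 1, 2 and 3, as labelled (log2 fold change 4.22, standard error (SE) 0.17, adjusted p = 0.000161 with edgeR's quasi-likelihood test). Groups are therefore called by their label throughout, log2 fold changes are positive where libraries labelled cKO are higher, and no direction is read as the effect of Net39 loss. Library totals were 33860001 to 38201728 counts where the label is Ctrl and 39191239 to 48839910 where it is cKO, without overlap. Values are CPM, read counts relative to library size, with TMM factors that assume that most genes do not differ. Those factors were 1.08 to 1.11 and 0.865 to 0.983, and the median log2 fold change over the 14180 genes tested, -0.015 with them, was -0.27 with total counts in their place. The 5 myofibre genes checked (Ckm, Acta1, Des, Ttn and Neb) summed to 61226 to 63009 CPM in libraries labelled Ctrl. They reached 66720 to 89216 CPM in those labelled cKO, so all libraries held myofibre RNA. Ckm and Neb passed as higher in the latter, as 12.6% of all genes tested did. Acta1 (log2 fold change 0.19), Ttn (0.47) and Des (-0.05) did not pass. With DESeq2's Wald test 3 of the 5 passed as higher. Replicates are mice, and replicate libraries differed by more than counting error.

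Adult muscle fibres are slow (type I, with the myosin heavy chain Myh7) or fast (types IIA, IIX and IIB, with Myh2, Myh1 and Myh4). Homeodomain proteins of the sine oculis family (Six4 and relatives) bind DNA and recruit EYA coactivators to switch on fast-fibre genes, SOX6 represses slow-fibre genes in fast fibres, TBX15 is found in fast glycolytic fibres, and the large MAF proteins activate the IIB programme. PROX1 and VGLL2, a cofactor of TEAD proteins, are known for maintaining slow-fibre gene expression. Slow myosin genes also carry microRNAs in their introns, and Sox6 mRNA is a known target of these.

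Sequences of the microRNAs of slow myosin genes and their seed matches in Sox6 are shown first. Myh7b hosts miR-499-5p (chr2:155622893-155622913, plus strand) and Myh7 hosts miR-208b-3p (chr14:54975710-54975731, minus strand). Both mature sequences are shown because their seeds, bases 2 to 8 in capitals, differ in the last base alone. Sequences of the microRNAs are from RefSeq on GRCm38.p6.
miR-499-5p: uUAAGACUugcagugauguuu
miR-208b-3p: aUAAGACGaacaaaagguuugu
The Sox6 3′ UTR (6046 bases in the GENCODE M21 transcript with the longest one, GRCm38, minus strand) holds 3 matches to the seed of miR-499-5p and 1 to that of miR-208b-3p. They are printed on the Sox6 strand with the match to the seed in capitals. The first site lies at chr7:115476621-115476645, the second at chr7:115476308-115476332, the third at chr7:115476286-115476310 and the miR-208b-3p site at chr7:115476630-115476654.
miR-499-5p site 1: cgccgtcttatgAGTCTTAcatttc
miR-499-5p site 2: aactattttaaaAGTCTTAcaggag
miR-499-5p site 3: gagacactgcaaAGTCTTAgacaat
miR-208b-3p site: tctgcccatcgcCGTCTTAtgagtc
At least 1 AGTCTTA is held by 9.46% of the 21020 3′ UTRs searched, and at least 3 by 31 genes. CGTCTTA is held by 1.52%. These numbers are over 3′ UTRs of all lengths and were not matched to the 6046 bases of Sox6. A match is a description of the letters only, and mature microRNAs were not measured in these libraries.

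Sox6, the SOXD repressor of slow-fibre genes (chromosome 7, 115470872 to 116038796, minus strand), was higher in libraries labelled cKO. It was at 73.1, 76.9 and 108 CPM in libraries labelled Ctrl 1, 2 and 3 and at 182, 166 and 202 CPM in those labelled cKO 1, 2 and 3. Every library labelled cKO lay above every library labelled Ctrl. The log2 fold change was 1.09 (SE 0.16, adjusted p = 0.00563, edgeR quasi-likelihood test), a 2.13-fold difference. It passed in all 13 alternatives, with log2 fold changes of 0.84 to 1.29. The microRNA host genes did not pass. Myh7b was at 38.8, 27.0 and 29.5 CPM in libraries labelled Ctrl and at 11.6, 21.2 and 1.43 CPM in those labelled cKO (log2 fold change -1.48, SE 0.73, adjusted p = 0.178). Its log2 fold change was -2.33 to -0.97 with 1 library left out, and it passed in none of the 13 alternatives. Myh7 was at 3676, 1723 and 2219 CPM against 494, 974 and 75.3 CPM (log2 fold change -2.30, SE 0.79, adjusted p = 0.0742). Neither gene's groups overlapped, but cKO 3 lay far under the other libraries of its group, with 14.8 times less Myh7b and 12.9 times less Myh7 than the highest of them. Myh7 passed without cKO 2 (-3.18, adjusted p = 0.0370), without cKO 3 (-1.81, adjusted p = 0.0486), with total counts (-2.53, adjusted p = 0.0489) and with DESeq2's Wald test (-2.29, adjusted p = 0.0196). Noncoding genes on the other strand share 13.3% of the Myh7 exon bases and those of Trpc4ap share 0.558% of the Myh7b exon bases. How strand was used in counting is not given in the sources used here, so reads from both partners cannot be told apart.

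Mafa, a large MAF factor with 1 exon (chromosome 15, 75745490 to 75748228, minus strand), had the largest log2 fold change of the 8 genes. It was at 12.4, 22.6 and 28.5 CPM in libraries labelled Ctrl and at 73.6, 48.2 and 61.2 CPM in those labelled cKO. The lowest library labelled cKO was thus above the highest labelled Ctrl, although values within the group labelled Ctrl differed by up to 2.30-fold. The log2 fold change was 1.53 (SE 0.30, adjusted p = 0.0127, edgeR), a 2.88-fold difference, and 1.26 to 1.80 in the 13 alternatives, all of which passed. Maf, the second large MAF gene (chromosome 8, 115682942 to 115707794, minus strand), was at 106, 96.0 and 181 CPM against 176, 248 and 230 CPM. Ctrl 3 overlapped the other group, and Maf did not pass (log2 fold change 0.77, SE 0.25, adjusted p = 0.0644). Without Ctrl 3 it passed (1.11, adjusted p = 0.00842), as it did with DESeq2 (0.79, adjusted p = 0.00824). The noncoding gene Gm15655 on the other strand shares 5.34% of the Maf exon bases. Maf is expressed in macrophages as well as in fibres. All 6 macrophage markers (Adgre1, Csf1r, Cd68, C1qa, C1qb and Mrc1) passed and were lower in libraries labelled cKO, as 11.8% of all genes were, with a summed level of 101 to 120 CPM where the label is Ctrl and 55.8 to 73.4 CPM where it is cKO. Their part in the Maf values was not tested.

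Tbx15, the T-box factor of fast glycolytic fibres (chromosome 3, 99240381 to 99354259, plus strand), was at 229, 244 and 216 CPM in libraries labelled Ctrl and at 397, 273 and 368 CPM in those labelled cKO. No library crossed into the other group, and cKO 2 lay nearest to the other group. The log2 fold change of 0.59 (SE 0.15, adjusted p = 0.0270, edgeR) is a 1.51-fold difference. This call was not stable. It was lost with total counts (0.33, adjusted p = 0.0650) and without Ctrl 1 (adjusted p = 0.0853), Ctrl 2 (0.0654), Ctrl 3 (0.0635), cKO 1 (0.0921) or cKO 3 (0.0958), and held without cKO 2. Tbx18, the relative with detectable counts, was at 1.61, 1.62 and 1.91 CPM against 1.16, 1.30 and 1.39 CPM and did not pass (log2 fold change -0.42, adjusted p = 0.147), except with total counts (-0.67, adjusted p = 0.0427).

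**Figure D1:**
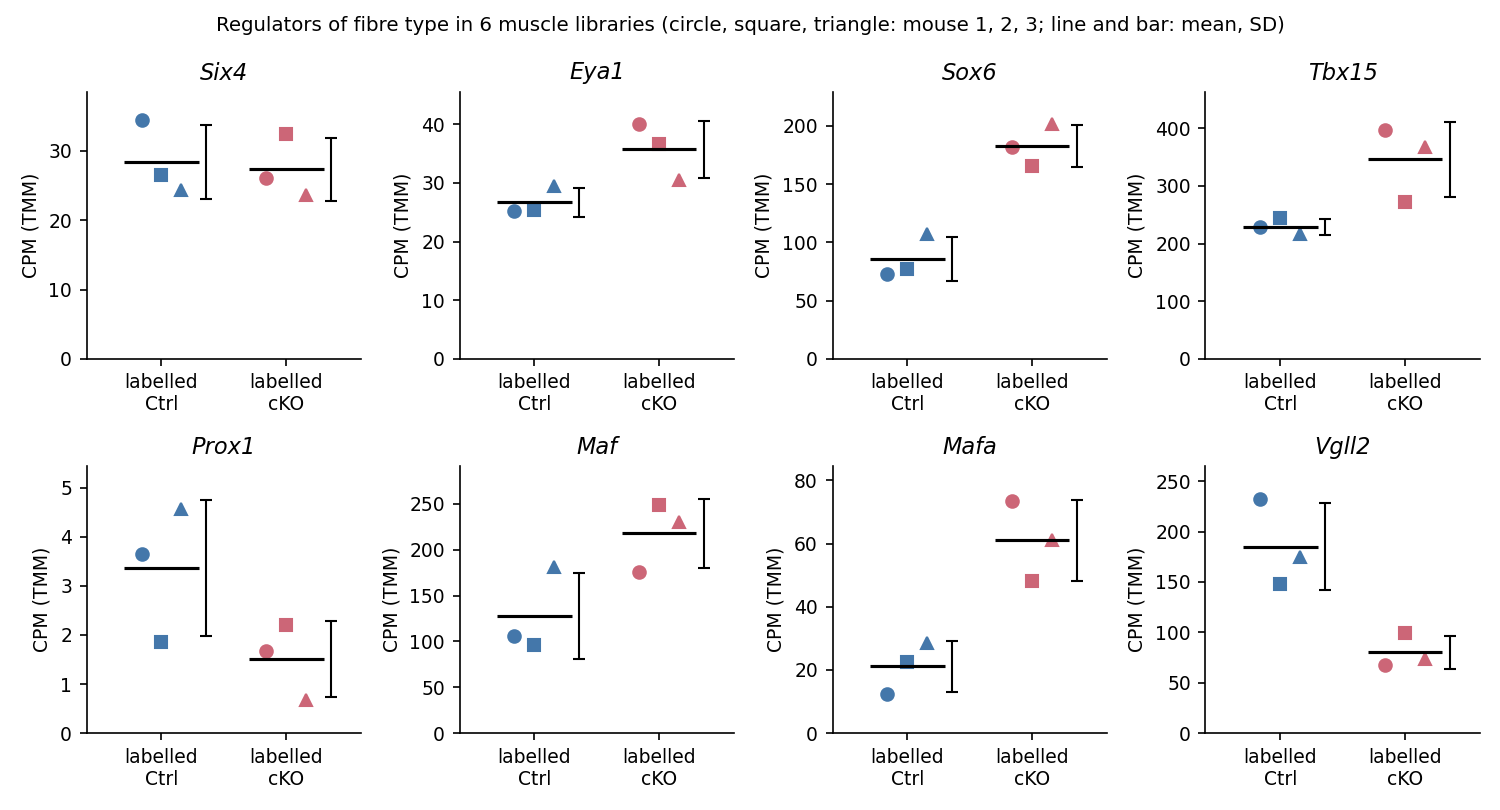
Level of each of the 8 regulators in every library, in CPM scaled by TMM factors, with 3 libraries labelled Ctrl in blue and 3 labelled cKO in red. Horizontal lines are means and the bars beside them SDs. Sox6, Mafa, Tbx15 and Eya1 lie higher in every library labelled cKO, Vgll2 lies lower in each of them, and Six4, Maf and Prox1 overlap.

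Eya1, the coactivator phosphatase that partners homeodomain proteins such as Six4 (chromosome 1, 14168954 to 14310235, minus strand), was at 25.1, 25.4 and 29.5 CPM in libraries labelled Ctrl and at 40.0, 36.7 and 30.4 CPM in those labelled cKO. Ctrl 3 and cKO 3 differed by less than 1 CPM, so the groups were only just apart. The log2 fold change of 0.42 (SE 0.12, adjusted p = 0.0426, edgeR) is a 1.34-fold difference. The call was lost with total counts (0.16, adjusted p = 0.322) and without Ctrl 1 (adjusted p = 0.135), Ctrl 2 (0.123), cKO 1 (0.130) or cKO 2 (0.0852). Six4, a homeodomain factor of myonuclei (chromosome 12, 73099609 to 73113456, minus strand), was at 34.4, 26.5 and 24.3 CPM against 26.0, 32.4 and 23.6 CPM. These values overlapped almost fully (log2 fold change -0.05, SE 0.16, adjusted p = 0.834), and their direction turned without Ctrl 1 (0.11) or cKO 3 (0.025).

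Vgll2, the TEAD cofactor (chromosome 10, 52022502 to 52028471, plus strand), was the 1 gene of the 8 that passed as lower in libraries labelled cKO. It was at 232, 148 and 174 CPM in libraries labelled Ctrl and at 67.9, 99.1 and 74.1 CPM in those labelled cKO. No library of one group reached the other. The log2 fold change was -1.20 (SE 0.20, adjusted p = 0.00819, edgeR), which makes the level 2.30-fold higher in libraries labelled Ctrl. Vgll2 passed in all 13 alternatives, with log2 fold changes of -1.45 to -1.003.

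Prox1, a homeodomain factor of slow fibres and of lymphatic endothelium (chromosome 1, 190118035 to 190170714, minus strand), was the least abundant of the 8. Its counts were 143, 77 and 167 in libraries labelled Ctrl and 59, 85 and 30 in those labelled cKO, which is 3.65, 1.86 and 4.57 CPM against 1.67, 2.21 and 0.682 CPM. Ctrl 2 lay under cKO 2, and the 2.22-fold higher level in libraries labelled Ctrl did not pass (log2 fold change -1.15, SE 0.47, adjusted p = 0.117). DESeq2's Wald test passed it (-1.14, adjusted p = 0.0486). Lymphatic markers moved alongside: 4 of the 5 tested (Lyve1, Flt4, Pdpn and Reln) passed as lower in libraries labelled cKO, where 11.8% of all genes did, Mmrn1 did not (adjusted p = 0.0554), and Ccl21a had 0 counts in every library. The summed level of the list was 45.2 to 52.4 CPM where the label is Ctrl and 28.9 to 30.8 CPM where it is cKO. Their part in the Prox1 values was not tested. Among markers of other cells, 2 of 6 fibro-adipogenic progenitor genes (Dpt and Pi16) passed as lower, beside the same 11.8%. That list was split, with 3 positive and 3 negative log2 fold changes (median -0.025). With edgeR 0 of 5 blood endothelial, 0 of 5 Schwann cell, 0 of 4 satellite cell, 0 of 5 tenocyte and 0 of 4 adipocyte genes passed. At an unadjusted p under 0.05 these counts were 1 lower, 2 lower, 1 higher, 0 and 0 (of all 14180 genes, 2773 were lower and 2728 higher at that threshold), and with DESeq2 they were 0, 1 lower, 1 higher, 0 and 0. All 5 Schwann cell genes had negative log2 fold changes (median -0.66). Prox1os on the other strand shares 1.59% of the Prox1 exon bases.

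Among the 8 genes, 4 passed as higher in libraries labelled cKO, where 12.6% of all genes tested did, and 1 as lower, where 11.8% did. With a fold change over 2 as a second requirement, Sox6 and Mafa were called higher (2.13% of all genes) and Vgll2 lower (3.92%). The groups did not overlap in 5 of the 8, against 43.9% of all genes. Without Ctrl 1, Ctrl 2 or cKO 1, and with total counts, 2 passed as higher, and those called higher numbered 1 without Ctrl 1 or with total counts and 3 without Ctrl 3. Over all genes 302 were called higher, and 172, 157 and 387 under these 3 settings. The median log2 fold change was 0.51, beside -0.015 over all genes tested. The 8 genes and the other lists were chosen with earlier results of these data known. Counts set beside the share over all genes are therefore descriptions and not tests of a set. For each of the 5 genes whose groups do not overlap, an exact two-sided permutation test of CPM gave p = 0.1, below which 3 values against 3 cannot go.

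**Figure D2:**
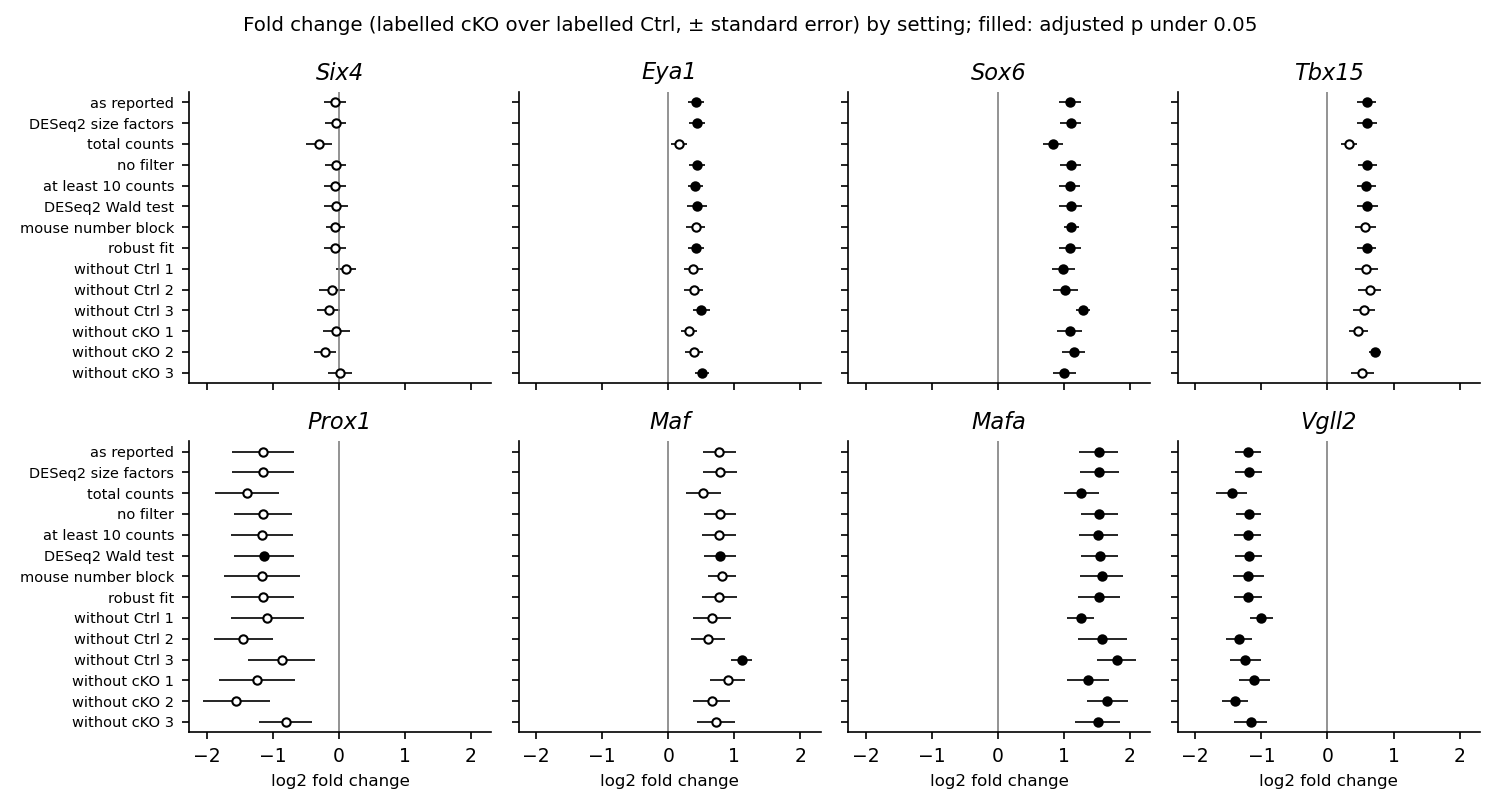
Log2 fold change of each of the 8 regulators (labelled cKO over labelled Ctrl, with the standard error) on the horizontal axis for each way of processing the counts, from the reported one at the top to each library left out. Filled points have an adjusted p under 0.05. Sox6, Mafa and Vgll2 are filled in every row, Tbx15 and Eya1 lose the call in several, and Six4 stays near 0.

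Levels can be set between genes only per length of exon. In CPM per kb of exon, Vgll2 was the most abundant of the 8 in libraries labelled Ctrl, at 112 (89.6 to 141), followed by Tbx15 at 61.3, Maf at 15.5, Mafa at 7.73, Sox6 at 5.79, Eya1 at 3.42, Six4 at 2.62 and Prox1 at 0.400. Mafa and Sox6 overlapped in range there, and other neighbours did not. In libraries labelled cKO the order was Tbx15 at 92.3 (72.7 to 106), Vgll2 at 48.7, Maf at 26.5, Mafa at 22.3, Sox6 at 12.3, Eya1 at 4.57, Six4 at 2.52 and Prox1 at 0.181, with Maf and Mafa overlapping. Vgll2 and Tbx15 thus exchanged the top places while the order of the rest was the same. Lengths were those of all GENCODE M21 exons of a gene joined, whichever transcripts were expressed. The annotation used for counting is not given, so the order between genes is approximate.

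**Figure D3:**
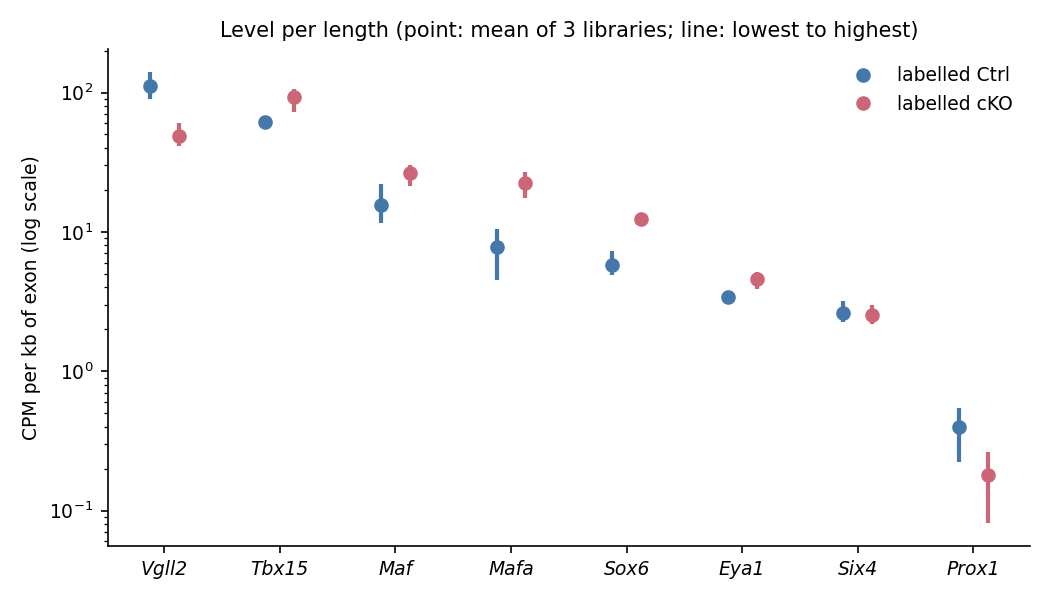
Level per length of the 8 regulators, in CPM per kb of exon on a log axis, ordered by their mean in libraries labelled Ctrl. Points are means of 3 libraries and lines run from the lowest to the highest library. Vgll2 falls from 112 to 48.7 and Tbx15 goes from 61.3 to 92.3.

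Relatives of these genes passed in both directions. Of 25 relatives and partners listed, 20 had enough counts to test; Six3, Six6, Tbx22, Nrl and Vgll1 had 0 or 1 count in each library. Those that passed were 3 higher in libraries labelled cKO and 4 lower, together 35.0% of the 20 where 24.4% of all genes passed, and the median log2 fold change of the 20 was -0.12. Without Ctrl 1, 1 relative passed as lower, and without cKO 1 or cKO 3, 2 did. Six2, a homeodomain gene like Six4, was at 11.3, 13.5 and 16.9 CPM in libraries labelled Ctrl and at 41.5, 30.1 and 43.9 CPM in those labelled cKO (log2 fold change 1.47, SE 0.19, adjusted p = 0.00394). Six5 went the other way, at 7.51, 6.56 and 6.29 CPM against 4.71, 4.23 and 4.52 CPM (-0.60, adjusted p = 0.0155), a call lost without Ctrl 1 (adjusted p = 0.0615) or cKO 3 (0.0548). These homeodomain genes passed in opposite directions, and Six4 did not pass.

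EYA genes also passed in both directions. Eya4 was at 21.4, 23.1 and 29.2 CPM in libraries labelled Ctrl and at 76.7, 41.5 and 67.4 CPM in those labelled cKO (log2 fold change 1.33, SE 0.23, adjusted p = 0.00888). It passed in all 13 alternatives, unlike Eya1. Eya3 was at 27.1, 25.6 and 25.6 CPM against 20.2, 22.7 and 20.0 CPM (-0.32, adjusted p = 0.0325), a call lost without Ctrl 1, Ctrl 2, cKO 1 or cKO 3 (adjusted p of 0.111, 0.0791, 0.0962 and 0.109). Eya2, at 3.47 to 4.72 CPM, did not pass (adjusted p = 0.488). The DACH cofactors, which act with EYA proteins, did not pass either. Dach2 was at 3.14, 3.26 and 1.48 CPM against 0.960, 1.71 and 0.318 CPM (log2 fold change -1.41, SE 0.56, adjusted p = 0.108). It passed without cKO 2 (-2.09, adjusted p = 0.0403) and with DESeq2's Wald test (-1.39, adjusted p = 0.0395). Dach1 stayed near 0 (0.04, adjusted p = 0.895), with a direction that turned to -0.21 with total counts.

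Among TEAD proteins, the DNA-binding partners of VGLL2, Tead1 was at 279, 236 and 277 CPM in libraries labelled Ctrl and at 375, 369 and 405 CPM in those labelled cKO (log2 fold change 0.54, SE 0.10, adjusted p = 0.0106), a call lost with total counts (0.28, adjusted p = 0.0727). Tead3 was at 20.5, 17.95 and 17.5 CPM against 12.4, 12.6 and 10.8 CPM (-0.64, SE 0.11, adjusted p = 0.00751) and passed in all 13 alternatives. Tead2 and Tead4 did not pass (adjusted p of 0.275 and 0.416). Vgll2 and Tead1 thus passed in opposite directions. The other VGLL genes had values of 0.47 for Vgll3 (adjusted p = 0.183) and 0.04 for Vgll4 (adjusted p = 0.862, and -0.22 with total counts). Vgll3 passed without Ctrl 3 (0.75, adjusted p = 0.0314).

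Small MAF proteins, which lack an activation domain, included 1 gene that passed. Mafk was at 49.6, 42.0 and 53.9 CPM in libraries labelled Ctrl and at 33.2, 38.3 and 31.2 CPM in those labelled cKO (log2 fold change -0.50, SE 0.12, adjusted p = 0.0239). That call was lost without Ctrl 1, Ctrl 3, cKO 1 or cKO 3 (adjusted p of 0.0796, 0.0528, 0.0739 and 0.0772), and 4.33% of the Mafk exon bases are shared with Tmem184a on the other strand. Maff had a log2 fold change of -1.05 (adjusted p = 0.0653) and passed without Ctrl 2 (-1.30, adjusted p = 0.0458), without cKO 3 (-1.46, adjusted p = 0.0389), with total counts (-1.31, adjusted p = 0.0277) and with DESeq2 (-1.04, adjusted p = 0.00927). Mafg had 0.23 (adjusted p = 0.127, -0.035 with total counts) and passed without cKO 2 (0.30, adjusted p = 0.0319). The SOXD relatives of Sox6 did not pass: Sox5 was at 1.13 to 1.92 CPM (log2 fold change -0.27, adjusted p = 0.417) and Sox13 at 11.6 to 21.5 CPM (-0.08, adjusted p = 0.825). Prox2 was at 2.13 to 3.36 CPM and did not pass (0.16, adjusted p = 0.582, and -0.10 with total counts).

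**Figure D4:**
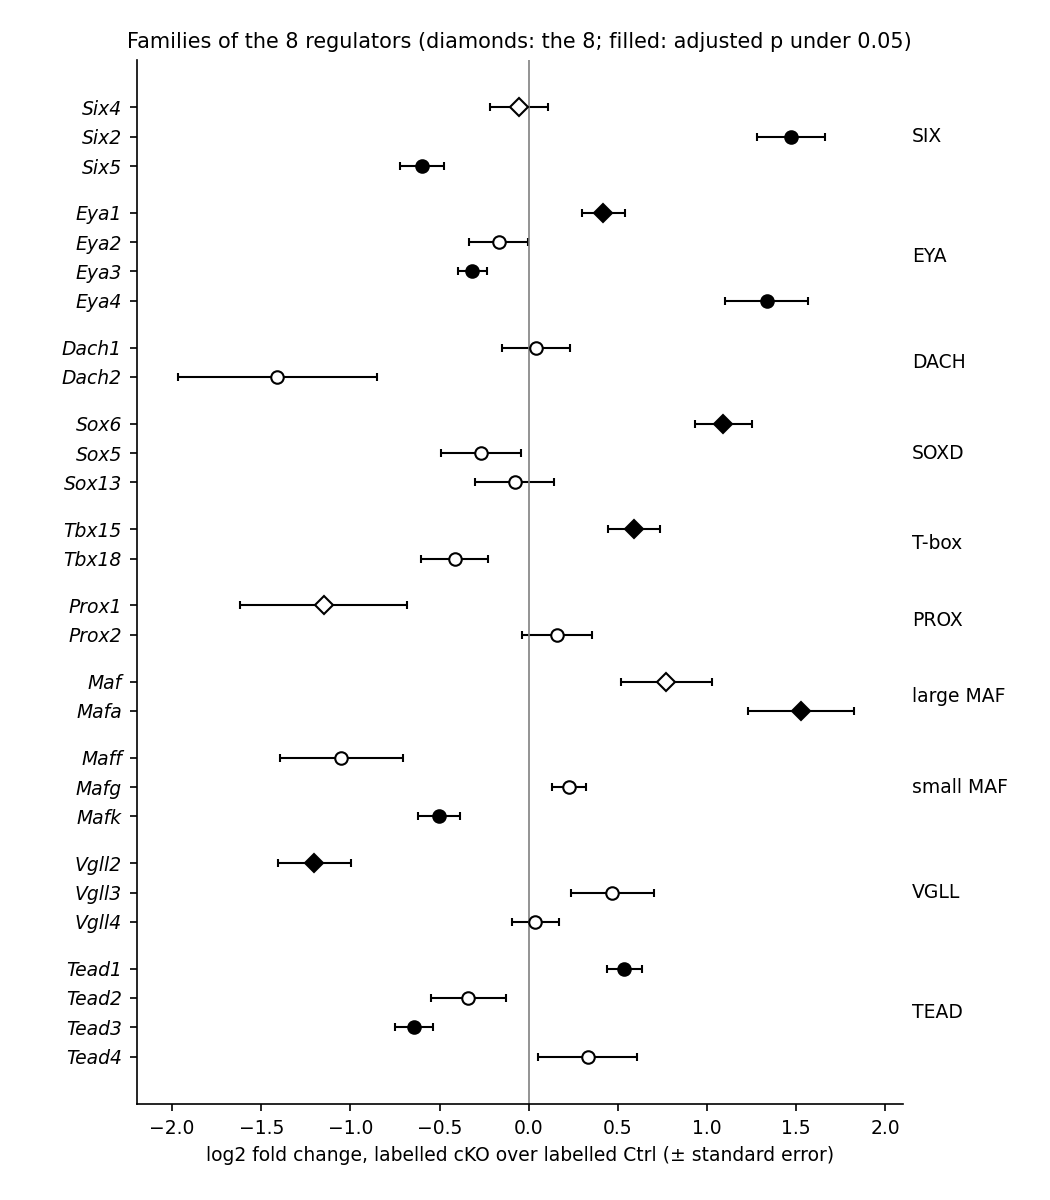
Log2 fold change (labelled cKO over labelled Ctrl, with the standard error) of the 8 regulators, shown as diamonds, and their tested relatives and partners, shown as circles, grouped by family. Filled symbols have an adjusted p under 0.05. The sine oculis, EYA and TEAD families each hold filled symbols on both sides of 0, from -0.60 for Six5 to 1.47 for Six2 in the first.

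Of 29 other regulators of fibre type and muscle metabolism, 4 passed as higher in libraries labelled cKO (Nfatc3, Nfia, Nfic and Bhlhe41) and 2 as lower (Myog and Esrrg), together 20.7% of the 29 where 24.4% of all genes passed (12.6% higher and 11.8% lower), with a median log2 fold change of -0.0014. Esrrg, the estrogen-related receptor known for the oxidative programme, was at 121, 94.3 and 96.6 CPM in libraries labelled Ctrl and at 28.4, 49.2 and 22.5 CPM in those labelled cKO (log2 fold change -1.64, SE 0.28, adjusted p = 0.00839). Myog, a myogenic factor that rises on denervation, was at 19.6, 22.1 and 20.8 CPM against 6.07, 5.09 and 5.73 CPM (-1.89, SE 0.10, adjusted p = 0.000550). Nfatc3, a calcineurin-dependent factor, had a log2 fold change of 0.61 (adjusted p = 0.00750), and these 3 genes passed in all 13 alternatives. Nfic, Nfia and Bhlhe41 had 0.57, 0.44 and 1.16 (adjusted p of 0.0179, 0.0118 and 0.0274). Nfia lost the call with total counts (0.18, adjusted p = 0.130) and without Ctrl 1 (adjusted p = 0.0503), Nfic with total counts (0.31, adjusted p = 0.0570) and without cKO 1 (0.0617) or cKO 3 (0.0653), and Bhlhe41 without Ctrl 2 (0.0672), cKO 1 (0.0767) or cKO 3 (0.0851). With total counts, 9 of the 29 passed as lower and 2 as higher, where 4069 and 673 of all 14180 genes did. Those that passed as higher numbered 7 without Ctrl 3 and 2 without cKO 1 or cKO 3, and those that passed as lower numbered 4 without cKO 2.

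Contractile genes of the fast and slow programmes differed widely. Of 15 fast-fibre genes, 12 passed as higher in libraries labelled cKO (Myh4, Mylpf, Tnni2, Tnnt3, Tnnc2, Atp2a1, Casq1, Actn3, Pvalb, Mybpc2, Myoz1 and Mylk2), 2 as lower (Myh1 and Myh2), and Myl1 did not pass (adjusted p = 0.194), where 12.6% of all genes passed as higher and 11.8% as lower. The median log2 fold change of the 15 was 0.97. The IIB myosin Myh4 was at 15349, 24649 and 36565 CPM in libraries labelled Ctrl and at 80134, 57352 and 72862 CPM in those labelled cKO (log2 fold change 1.46, SE 0.33, adjusted p = 0.0213). It lost the call without Ctrl 2, cKO 1 or cKO 3 (adjusted p of 0.0764, 0.0663 and 0.0732). Mylk2, a kinase of the fast light chain, had the largest value of the list (2.02, adjusted p = 0.000627). The IIX and IIA myosins had -0.93 for Myh1 (adjusted p = 0.0341) and -1.23 for Myh2 (adjusted p = 0.0392), so the genes lower in libraries labelled cKO on this list are themselves fast myosins. Leaving out Ctrl 2, cKO 1 or cKO 3 left 5, 6 and 4 genes of the list that passed as higher, and with Ctrl 1, Ctrl 2 or cKO 1 left out neither Myh1 nor Myh2 passed. Without cKO 2 or cKO 3, 1 of the 2 passed.

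Of 12 slow-fibre contractile genes, all had negative log2 fold changes (median -2.23), and 6 passed: Myl2, Myl6b, Tnnt1, Atp2a2, Casq2 and Myoz2. Of all 14180 genes, 7337 had negative values and 11.8% passed as lower. Among libraries labelled cKO, every gene of the list was lowest in cKO 3 and highest in cKO 2. Highest over lowest there ran from 1.08-fold for Myl6b to 14.8-fold for Myh7b. The 12 genes thus varied together, and their signs are not separate observations. Atp2a2, the slow calcium pump, was at 4186, 3072 and 3197 CPM in libraries labelled Ctrl and at 503, 925 and 125 CPM in those labelled cKO (-2.75, SE 0.63, adjusted p = 0.0217). Its call was lost without Ctrl 1 (adjusted p = 0.0671), Ctrl 2 (0.0531) or cKO 1 (0.0778), and its log2 fold change was -3.49 without cKO 2. The number that passed was 2, 3 and 4 without Ctrl 1, 2 or 3, 3 without cKO 1, 10 without cKO 2 and 9 without cKO 3. Counts over all genes moved too: 1786 passed as higher and 1668 as lower with all 6 libraries, 766 and 809 without Ctrl 1, 873 and 947 without Ctrl 2, 1703 and 1529 without Ctrl 3, 896 and 893 without cKO 1, 1777 and 1808 without cKO 2, and 772 and 788 without cKO 3. Within the 8 regulators, Sox6, Mafa and Vgll2 passed without any 1 of the 6.

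The profile of Mafa over the 6 libraries was closest to that of Myh4. Likeness was the root mean square difference in log2 CPM after each gene was centred on its own mean, over 8058 candidate genes (8059 for Prox1) with a mean of at least 10 CPM, and is a description over 6 libraries that share their groups and scaling. It was 0.0867 for Myh4 and 0.0954 for Pvalb, the calcium buffer of IIB fibres. Mafa, Myh4 and Eya4 ranked the libraries in an identical order, with Ctrl 1 lowest, then Ctrl 2, Ctrl 3, cKO 2 and cKO 3, and cKO 1 highest. Sox6 was closest to Fmnl2 (0.0642) and Ppp3cb (0.0656), the latter a catalytic subunit of calcineurin, and Tbx15 to B4galt1 (0.0248) and Cutc (0.0433). The nearest genes to Eya1 were 1700021K19Rik (0.0522) and Aak1 (0.0562), and those to Six4 were Eci1 (0.0515) and Acaa1a (0.0556), enzymes of fatty acid oxidation. For Maf the nearest was Mtap (0.108), and for Vgll2 they were Fam129a (0.131) and Nt5c2 (0.144). Prox1 had no close match; Inpp4b (0.314) and Arid5b (0.349) were the nearest. Vgll2 and Myh7 ranked the libraries alike except for the lowest pair. Both rose from cKO 2 through Ctrl 2 and Ctrl 3 to Ctrl 1, but Vgll2 was lowest in cKO 1 and Myh7 in cKO 3.

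**Figure D5:**
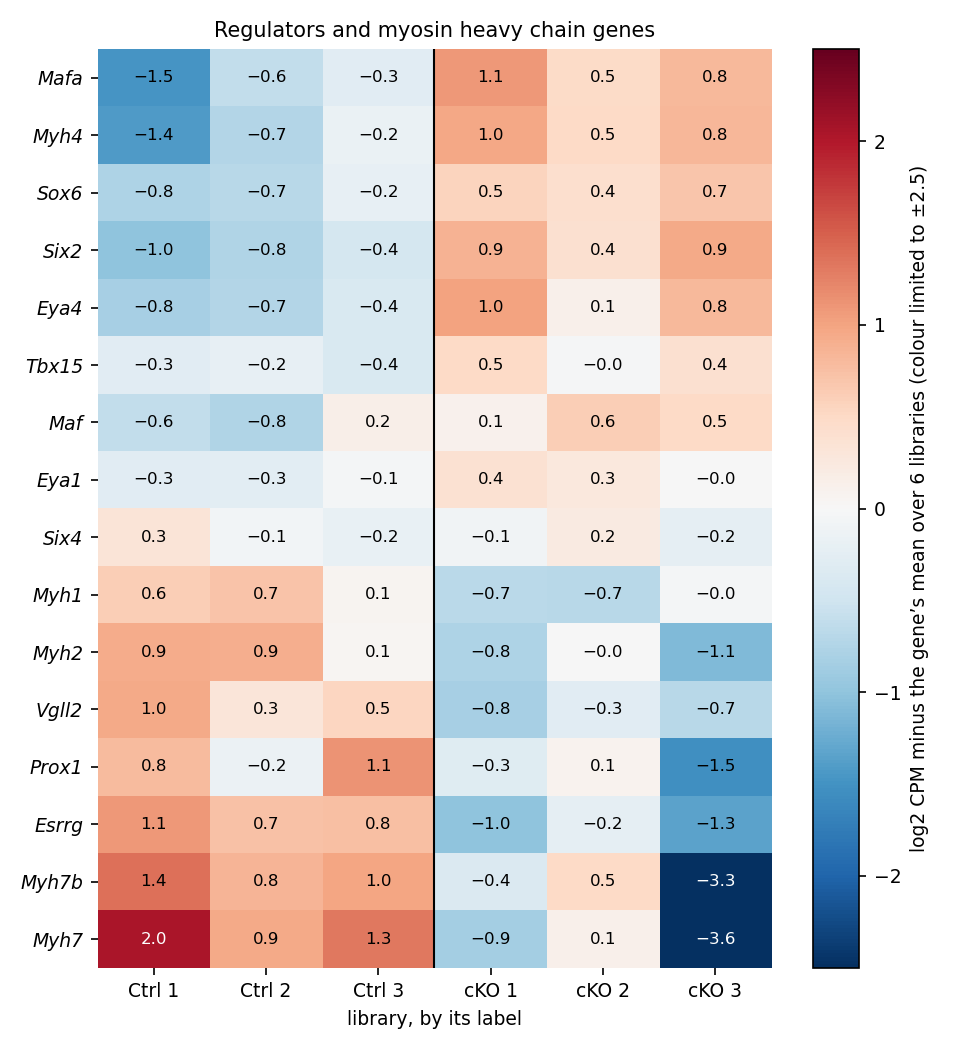
Heat map of log2 CPM minus each gene's mean over the 6 libraries, for the 8 regulators, some of their relatives and the myosin heavy chain genes in rows and the libraries in columns by label. Red is above and blue below the gene's mean. Mafa and Myh4 run in parallel, with Ctrl 1 lowest and cKO 1 highest, whereas Myh7 and Myh7b are far lower in cKO 3 than elsewhere.

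Start-site sequences were searched on both strands for motifs of these factors. The motifs were MEF3 for sine oculis factors (TCAGGTT), the MARE half-site for large MAF (TGCTGAC), the SOX motif (AACAAT), the T-box motif (AGGTGTGA) and the MCAT motif for TEAD (CATTCC), found in 4.07%, 4.67%, 10.7%, 1.28% and 14.7% of 32851 RefSeq promoters (250 bases before to 50 after the start). Promoters were given for Six4, Sox6, Prox1 and Vgll2, 4 of the 8 genes. Six4 held 1 MEF3 match, and 3 of the 6 Sox6 promoters held matches to the MCAT, MEF3 or SOX motif. Those of Vgll2 and Prox1 held none of the 5 motifs. The 250 bases before the start of Myh7 (chr14:54994627-54994876, minus strand) and Myh4 (chr11:67237562-67237811, plus strand), from RefSeq on GRCm38.p6, are shown because these myosins mark the slow and the IIB programme. Capitals mark the motif matches.
Myh7: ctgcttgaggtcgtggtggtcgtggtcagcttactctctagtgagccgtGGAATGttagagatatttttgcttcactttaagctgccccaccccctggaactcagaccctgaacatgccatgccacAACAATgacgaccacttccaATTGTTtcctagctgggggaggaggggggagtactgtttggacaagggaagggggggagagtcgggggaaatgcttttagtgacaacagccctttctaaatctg
Myh4: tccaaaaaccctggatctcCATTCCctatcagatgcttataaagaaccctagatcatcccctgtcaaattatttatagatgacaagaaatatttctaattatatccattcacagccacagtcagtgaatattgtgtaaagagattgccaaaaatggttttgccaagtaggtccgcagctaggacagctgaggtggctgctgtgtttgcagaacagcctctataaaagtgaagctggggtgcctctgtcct
Myh7 held 2 SOX matches, AACAAT and its reverse complement ATTGTT, and an MCAT match as the reverse complement GGAATG. Myh4 held 1 MCAT match, as did Myh1, and Myh2 held 1 SOX match. Myh7b held 2 MARE half-sites. Such short matches are frequent, as the shares of all promoters show, and were not tested for binding. Matches within a promoter did not overlap.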

How the data were processed

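Bulk RNA-Seq of GP muscle gave 3 libraries labelled Ctrl and 3 labelled cKO. The authors deposited raw counts per gene without normalization, 1 table per library. Per the labels, reads were checked with FastQC 0.11.8, trimmed with Trimmomatic 0.39, aligned to mm10 with HISAT2 2.1.0 and counted with featureCounts 1.6.2. The annotation and strand setting of the counting are not given in the sources used here. The range of total counts per group is in the report. Mice differed by more than counting error (chi-square over degrees of freedom for pairs of replicates, 29.5 to 101).

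The test was that of edgeR 4.0.16 in R 4.3.3 on the counts (TMM, filterByExpr, glmQLFit, glmQLFTest, Benjamini-Hochberg adjustment over 14180 genes). Passing means an adjusted p under 0.05, and called adds a difference of over 2-fold, both taken from the study. Standard errors were derived from the F statistic. CPM of single genes was compared by exact two-sided permutation tests. Likeness used log2 CPM with a prior count of 2. Scripts were tested on simulated data. Positions and exon lengths are from GENCODE M21 on GRCm38 (mm10), and shared exon bases were counted there.

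Lists were relatives and partners, other fibre type regulators, slow- and fast-fibre contractile genes and markers of myofibres, macrophages, lymphatic and blood endothelium, fibro-adipogenic progenitors, satellite cells, tenocytes, Schwann cells and adipocytes. The members and lists were chosen with earlier results of these data known. Named are the 8 genes, genes of each list that passed, relatives of the 8 whether they passed or not, all adult myosin heavy chains and the 2 genes most like each of the 8. A few genes that belong to these lists or to this choice are not reported here. Alternatives were scaling by total counts or by DESeq2's size factors, testing without a filter or with 10 counts required of every library, DESeq2 1.42.0, a robust fit, the mouse number as a block, and each library left out in turn. Sequencing reads and the study's single-nucleus data were not used here.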

Additional observations from a re-analysis of the deposited data

How the results depend on the processing

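Among the 13 alternatives, Sox6, Mafa, Vgll2, Six2, Eya4, Tead3, Nfatc3, Myog and Esrrg kept their direction and stayed past the threshold in each. Total counts in place of TMM factors left 2 of the 8 regulators passing as higher in libraries labelled cKO, 1 called higher, and 2 other regulators higher and 9 lower, where 673 and 4069 of all 14180 genes passed as higher and lower; that scaling lowers every log2 fold change. DESeq2's Wald test passed 5 of the 8 as higher, passed and called 2 as lower, and passed 8 other regulators as higher and 10 slow-fibre genes as lower, where 2092 of 14943 genes passed as higher and 1830 as lower (586 called lower); the cause was not tested. Leaving out each library in turn (5 libraries remain) gave 2 to 4 of the 8 passing as higher, 1 to 3 called higher, 1 to 5 relatives lower, 2 to 7 other regulators higher and 2 to 4 lower, 2 to 10 slow-fibre genes lower, 4 to 12 fast-fibre genes higher and 0 to 2 lower.

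Directions turned, for genes that did not pass, with total counts for Dach1 (-0.21), Prox2 (-0.10), Mafg (-0.035) and Vgll4 (-0.22). With 1 library left out, values ran across 0 for Six4 (-0.21 to 0.11), Dach1 (-0.081 to 0.28), Sox13 (-0.30 to 0.12), Prox2 (-0.023 to 0.24) and Vgll4 (-0.10 to 0.11).

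Ctrl and cKO mice share the numbers 1 to 3. Deviations of same-numbered libraries from their group means correlated at 0.0835, -0.215 and -0.00201, so the numbers were not taken to pair the mice. A fit with the replicate block passed 927 genes as higher and 972 as lower (1786 and 1668 without it), 2 of the 8 regulators as higher, 6 fast-fibre genes as higher and 1 as lower. With the block Dach2 passed (-1.54, adjusted p = 0.0367), and Eya1, Tbx15, Eya3, Mafk, Nfic, Myh4 and Myh1 were among the genes that did not. Not every library correlated best with its own number. Among the 8 regulators Prox1 had the fewest counts, 30 to 167 per library.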

Other observations

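A noncoding gene of the fast myosin cluster was looked at after its values were seen. 2310065F04Rik, a long intergenic RNA, was at 37.6, 54.7 and 52.3 CPM in libraries labelled Ctrl and at 173, 168 and 184 CPM in those labelled cKO (log2 fold change 1.86, standard error 0.15, adjusted p = 0.000897, edgeR quasi-likelihood test). The groups did not overlap.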
